A study of Mus musculus with 6 samples.

Results

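Cd44 and the enzymes that make and break down hyaluronan were followed across the mouse ovarian cancer line ID8 and ID8-M, a line selected from it in mice. The genes were chosen by symbol, namely the hyaluronan receptor gene Cd44, the synthase genes Has1, Has2 and Has3, and the hyaluronidase genes Hyal1 and Hyal2. Every probe annotated with 1 of these symbols was taken, which gave 15 of the 45281 probes on the array and covered 5 of the 6 genes. Cd44 has 9 of those probes, Has1 and Hyal1 have 2 each, and Has2 and Hyal2 have 1 each. No probe carries the symbol Has3 in the annotation used, so Has3 was not analysed here. The set was proposed with the comparison of the lines already known, in particular that Cd44 probes differ in opposite directions, so the differences of its members are given as a description and without p-values.

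Hyaluronan is a long, unbranched sugar polymer of the pericellular and extracellular matrix. It is made at the plasma membrane by the Has synthases from the precursors UDP-glucuronic acid and UDP-N-acetylglucosamine, and cut by hyaluronidases, of which Hyal2 acts at the cell surface and Hyal1 in lysosomes. CD44 is its main cell surface receptor, and alternative splicing of variant exons gives the Cd44 transcript many forms. In ovarian cancer, CD44 is known for binding tumour cells to the hyaluronan coat of the mesothelium that lines the peritoneal cavity.

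The parental group held 3 samples of ID8, a papillary serous ovarian epithelial line of female C57BL/6 origin. The other group held 3 samples of ID8-M, raised by injecting parental cells into the peritoneal cavity of female C57BL/6 mice aged 8 weeks, collecting ascites cells 12 weeks later and picking clones after 4 days in culture. Neither group was treated, and both grew in the same medium with 4% serum, insulin, transferrin and selenite. ID8-M is 1 selected line, the labels do not say whether samples of a line were separate cultures, and p-values therefore measure only the spread between these samples, which may be technical.

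The 6 arrays shared 1 chip, with the parental line on its first positions and ID8-M on the last ones, so chip position and line cannot be told apart. Between 16386 and 17186 probes per array were detected, meaning a detection p under 0.05 against the negative controls. Arrays correlated at 0.9933 to 0.9946 within a line and at 0.9673 to 0.9704 between lines. Of 6 epithelial markers with a probe, 5 (Krt7, Krt8, Krt18, Krt19 and Cdh1) were detected on all 3 arrays of each line, while Epcam was not detected on any array. The leukocyte and macrophage genes Ptprc, Adgre1, Csf1r, Lyz2 and Itgam, from cells that also carry CD44, were not detected on any array. Cd14 and Cd3e, of the same lists, were detected on all arrays. Mrc1, of the macrophage list, was detected on 1 ID8-M array and on no parental array. Several marker lists moved with the comparison. Of 4 ovarian and mesothelial markers with a probe, 2 were detected on all 3 parental arrays and 3 on all 3 ID8-M arrays, and no Pax8 probe was detected on more than 1 array. The summed normalized signal of that list was 3711 to 4028 in parental ID8 and 7643 to 8948 in ID8-M, although Msln in it did not pass (log2 difference of 0.23, limma adjusted p = 0.126). It was 18177 to 19947 and 29362 to 31007 for the epithelial list, and 4583 to 4920 and 7070 to 7290 for the fibroblast list. The epithelial list did not move as a whole. Krt7, Krt8, Krt18 and Krt19 rose by 0.50 to 2.13 (log2), while Cdh1 fell by 0.61 (limma adjusted p = 0.00468). Of the fibroblast list, Dcn and Col1a1 were detected on all arrays and the other 4 genes on none. Dcn rose by 0.61 (limma adjusted p = 0.000874), and Col1a1 differed by −0.10 (adjusted p = 0.776). The endothelial list gave 115 to 121 and 147 to 162, with Pecam1 detected on all 3 ID8-M arrays and no parental array and Cdh5 and Emcn on none. The macrophage list gave 591 to 652 and 483 to 527, and the leukocyte list 154 to 223 and 145 to 170. The part of these shifts in the results below was not tested. The precision of every value is limited by the 3 arrays per line.

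Cd44 was detected on every array of both lines by 5 of its 9 probes, and these probes did not differ between the lines in 1 direction. The brightest probe was lower on every ID8-M array, a pair of dim probes were higher on every ID8-M array, and the remaining 6 showed no separation beyond the spread of a line or lay at background. The platform pairs 8 of the 9 probes with 1 Cd44 transcript accession and the remaining 1, ILMN_1228214, with another, and RefSeq lists 6 curated Cd44 transcripts. Which exons the probes lie in was not analysed here.

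ILMN_1223697, the brightest Cd44 probe, had scanner intensities of 5218, 5283 and 4722 in parental ID8 and 4068, 4175 and 3398 in ID8-M. All ID8-M arrays lay below all parental arrays. After background correction and quantile normalization its log2 intensity was 12.24 ± 0.03 (SD, n = 3) in parental ID8 and 11.90 ± 0.14 (SD, n = 3) in ID8-M. The log2 difference was −0.34 ± 0.09 (SE), which is a 1.26-fold lower level in ID8-M. The standard error over the 46 to 57 beads of an array was 94.9 to 171 intensity units, which measures spread within an array only. Between arrays, the SD of intensity was 307 around a mean of 5075 in parental ID8 and 421 around 3880 in ID8-M. Background correction hardly touched this bright probe, whose log2 difference without it was −0.33.

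ILMN_3114585, the next probe, read 1148, 1448 and 1115 in parental ID8 and 1156, 1043 and 964 in ID8-M. The 2 lowest of these 6 values came from ID8-M, but the lines overlapped. The log2 difference was −0.19 ± 0.11 (SE) and did not pass the threshold of the fit, an adjusted p under 0.05 over all tested probes. It shares its sign with the brightest probe under all 14 alternative settings, with values from −0.27 to −0.09. Part of that agreement was fixed in advance, since a changed detection filter or a replicate block leaves the difference at −0.19. The deposited values also repeat the result without background correction (−0.17 in both).

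ILMN_2474229 read 253, 265 and 210 in parental ID8 and 241, 213 and 284 in ID8-M. The highest and the second lowest of the 6 values both came from ID8-M, and the log2 difference of 0.05 ± 0.22 (SE) lay far inside the spread of either line. Leaving out parental 3 or ID8-M 3 turned its sign, to −0.09 and −0.21.

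ILMN_2640330 went the other way from the brightest probe. Its intensity was 201, 196 and 199 in parental ID8 and 243, 222 and 212 in ID8-M, so each ID8-M array lay above each parental array. On the log2 scale the lines were at 6.30 ± 0.15 and 6.75 ± 0.10 (SD, n = 3 each), a difference of 0.45 ± 0.10 (SE) or 1.36-fold. The raw intensities differed by 1.14-fold only, since most of the signal of a probe this dim is background, and the log2 difference was only 0.20 when no background was corrected for. The standard error over beads was 6.77 to 11 intensity units within an array. Between arrays, the SD of intensity was 2.56 around a mean of 199 in parental ID8 and 15.5 around 226 in ID8-M.

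ILMN_2754990 was dimmer still, with 176, 181 and 168 in parental ID8 and 234, 185 and 183 in ID8-M. The lines did not overlap by a narrow margin, since 2 of the ID8-M arrays lay just above the highest parental array and ID8-M 1 stood apart. The log2 difference was 0.56 ± 0.17 (SE), or 1.47-fold, and the raw intensities differed by 1.15-fold. Without ID8-M 1 the difference was 0.34, and without background correction it was 0.21.

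The 4 other Cd44 probes were not tested, because none was detected on all 3 arrays of a line. ILMN_2697830 was detected on 2 arrays of each line and read 161 to 169 in parental ID8 and 152 to 172 in ID8-M. ILMN_2730266 was detected on 2 parental arrays and 1 ID8-M array and read 156 to 171 and 152 to 166. ILMN_1246460 and ILMN_1228214 were not detected on any array, with readings of 120 to 144 for the former and 134 to 143 for the latter. Their log2 differences lay between −0.13 and −0.0043. The lines overlapped for 3 of them, and for ILMN_1246460, which lay below the detection limit throughout, the ID8-M arrays were the lower ones.

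**Figure D1:**
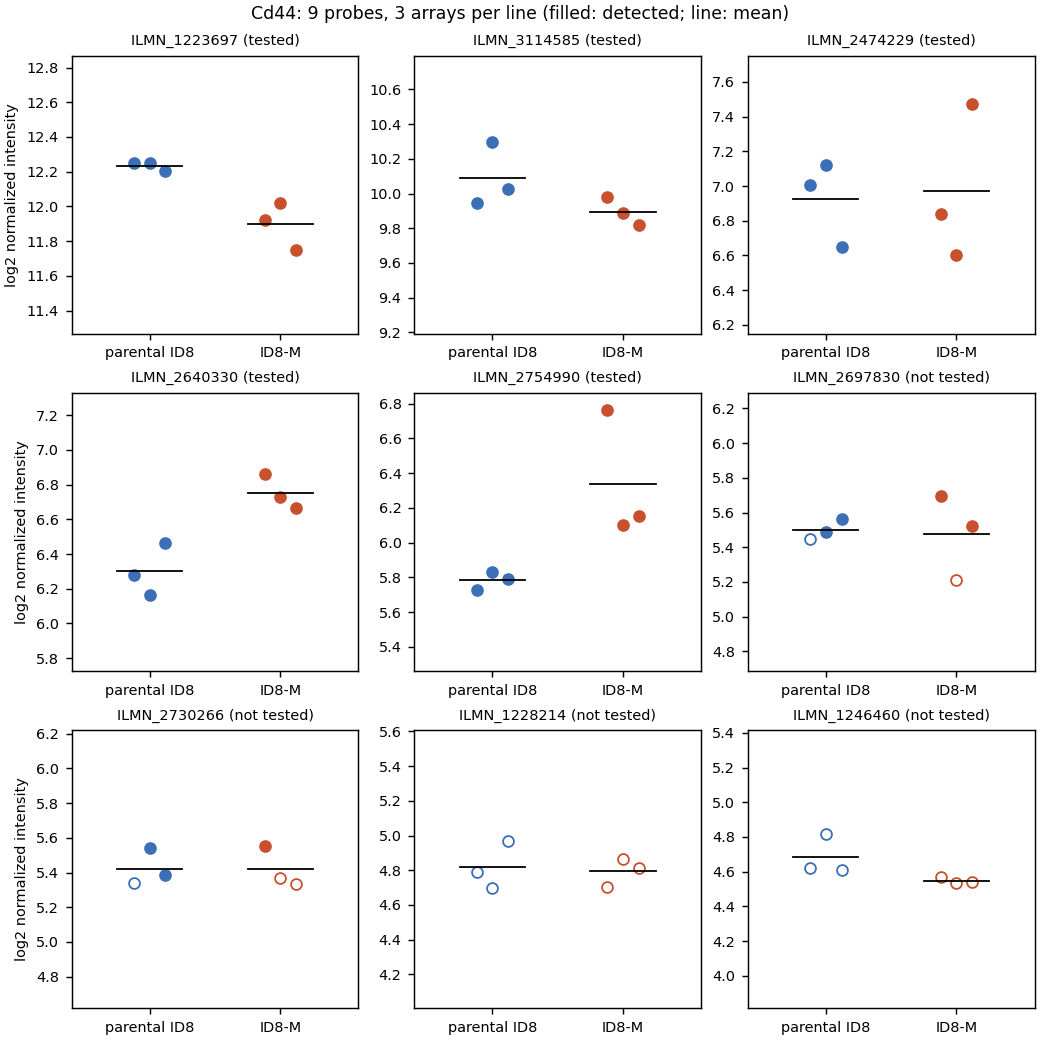
Normalized log2 intensity of the 9 Cd44 probes in 3 parental ID8 (blue) and 3 ID8-M (orange) arrays; filled points are detected (detection p under 0.05), short lines are means, and each panel spans the same range of log2 units. ID8-M lies below parental ID8 for ILMN_1223697 (11.90 against 12.24) and above it for ILMN_2640330 (6.75 against 6.30) and ILMN_2754990 (6.34 against 5.78).

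Among synthases, Has1 was detected in 1 line only. Has1 encodes the synthase isoform that is usually least active, and its probe ILMN_2997282 read 147, 130 and 146 in parental ID8 and 164, 166 and 177 in ID8-M. It was detected on no parental array and on all 3 ID8-M arrays, with detection p-values there of 0.0385, 0.016 and 0.00321, and the lines did not overlap. On the background-corrected scale ID8-M was at least 1.24-fold higher, which sets its mean against the lowest detected signals of the parental arrays and holds for that scale only. The fitted log2 difference was 0.87 ± 0.17 (SE) with background correction and 0.30 without it, and the raw intensities differed by 1.20-fold. The other Has1 probe, ILMN_1228419, which is paired with a different transcript accession, was not detected on any array and read 128 to 140 in parental ID8 and 126 to 136 in ID8-M.

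Has2 encodes the synthase that provides most hyaluronan in mouse development. Its only probe, ILMN_1254975, was not detected on any array, with readings of 131, 137 and 135 in parental ID8 and 124, 126 and 124 in ID8-M. These readings lie below the array medians of 139 to 148, so no level of Has2 could be told from background, and the raw gap between the lines did not outlast normalization, after which the lines overlapped.

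Among hyaluronidases, Hyal2 was detected on all 6 arrays. The Hyal2 probe ILMN_1230039 read 1476, 1379 and 1434 in parental ID8 and 1299, 1284 and 1253 in ID8-M. The raw values did not overlap, the normalized ones did, at 10.33 ± 0.10 and 10.21 ± 0.05 (SD, n = 3 each), and the log2 difference of −0.12 ± 0.09 (SE) did not pass the threshold. The 95% interval of that difference ran from −0.31 to 0.08, and a missed threshold does not show that the lines express Hyal2 alike.

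Hyal1 stayed near background. ILMN_1253049 read 144, 158 and 145 in parental ID8, where it was not detected on any array, and 147, 167 and 157 in ID8-M, where 2 arrays detected it. The lines overlapped, and with a log2 difference of 0.36 it entered no test. ID8-M 1 was the ID8-M array that did not detect it. With that array left out the probe entered the fit only through ID8-M and was called higher (0.54). Nothing is read from this call, since the removal itself let the probe pass the filter. It did not pass when all probes were tested without a detection filter. ILMN_2644375, the second Hyal1 probe, was not detected on any array and read 117 to 126 in parental ID8 and 117 to 138 in ID8-M.

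**Figure D2:**
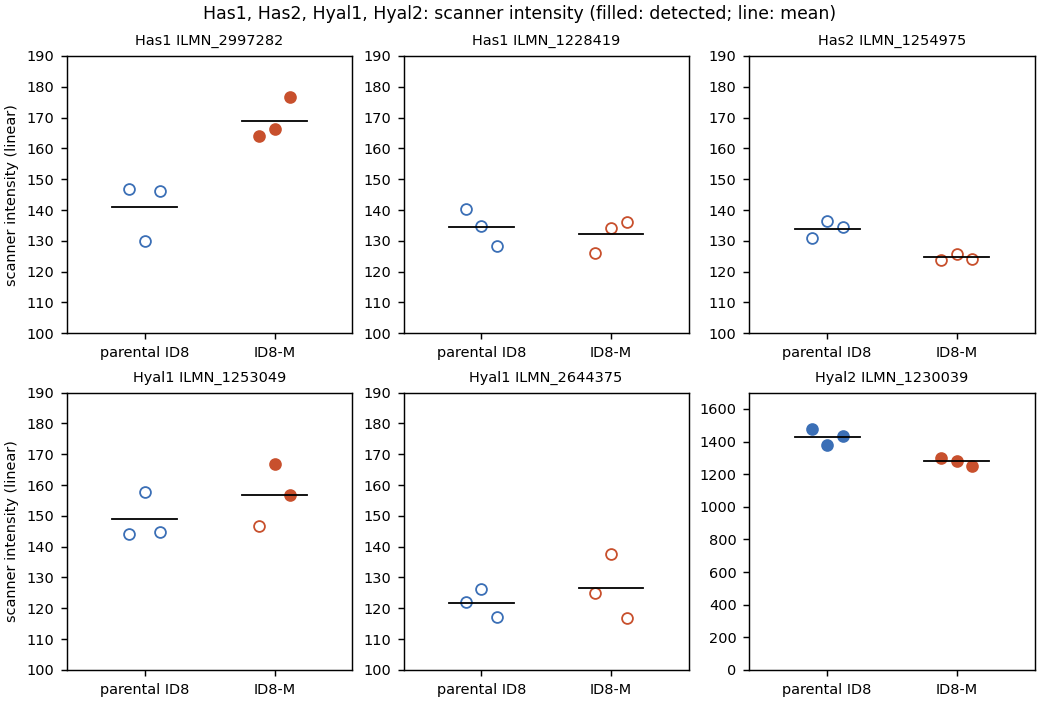
Scanner intensity (linear, not background subtracted) of the Has1, Has2, Hyal1 and Hyal2 probes in 3 parental ID8 (blue) and 3 ID8-M (orange) arrays; filled points are detected, open points are not, short lines are means, and only the Hyal2 axis starts at 0. Has1 ILMN_2997282 is detected on the 3 ID8-M arrays alone (164 to 177), and Hyal2 is detected on all arrays (1253 to 1476).

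Of the 15 probes, 7 entered the fit across all probes (limma), since 8 were not detected on all 3 arrays of at least 1 line. Of these 7, 4 passed an adjusted p under 0.05, with 3 higher in ID8-M (2 of Cd44 and 1 of Has1) and 1 lower (the brightest of Cd44). Over the whole array 28.4% of tested probes passed, 13.6% higher and 14.8% lower. The same 4 probes were those whose lines did not overlap, as held for 44.6% of all tested probes. As the members were chosen with this comparison known, and as a probe that entered only through the line where it was detected (Has1) had to differ, nothing is read from these counts. The median log2 difference was 0.05 over the 7 member probes and −0.04 over all 16221 tested probes.

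Calls in both directions within 1 gene were rare on this array. Of 3413 genes with at least 2 tested probes, 8 (0.234%) had called probes of opposite sign, and these were 1.13% of the 705 genes with at least 2 called probes. Cd44 is among them, as its choice required, and the other 7 were Gfod1, H2bc21, Irak2, Pvr, Rbpms, Stx8 and Vti1a. The called Cd44 probes of opposite sign differ widely in brightness, with parental intensities near 5075 for the falling probe and near 199 and 175 for the rising ones.

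**Figure D3:**
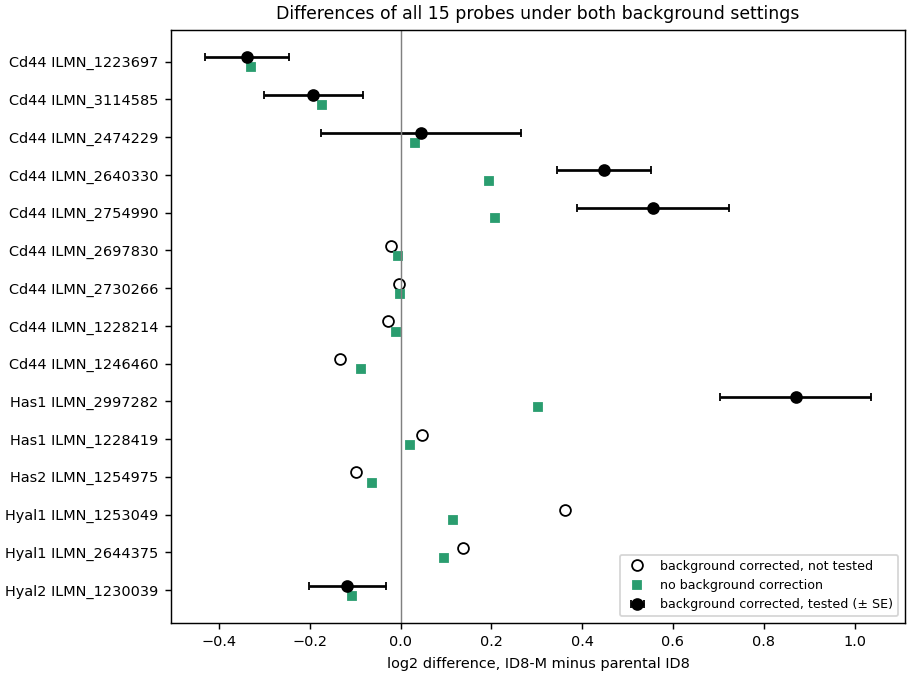
Log2 difference (ID8-M minus parental ID8) of the 15 probes with background correction (circles, ± SE where tested, open where not tested) and without it (green squares). Bright probes such as Cd44 ILMN_1223697 (−0.34 and −0.33) keep their difference, while dim ones such as Has1 ILMN_2997282 (0.87 and 0.30) and Cd44 ILMN_2754990 (0.56 and 0.21) shrink.

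The separate calls rested on few arrays. The call of ILMN_1223697 was lost on leaving out parental 1, parental 2, parental 3, ID8-M 1 or ID8-M 3, although its difference stayed between −0.40 and −0.27. That of ILMN_2754990 was lost on leaving out any 1 parental array and when all probes were tested without a detection filter. ILMN_2640330 and Has1 ILMN_2997282 kept theirs without any 1 array, with differences of 0.38 to 0.53 and 0.72 to 0.99. The Has1 probe entered each of these fits only through ID8-M, where it is high, so nothing is read from its kept calls. With detection p under 0.01 required on all 6 arrays, it was not tested. No alternative setting turned the sign of these 4 probes, although a changed detection filter or a replicate block cannot change a difference.

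**Figure D4:**
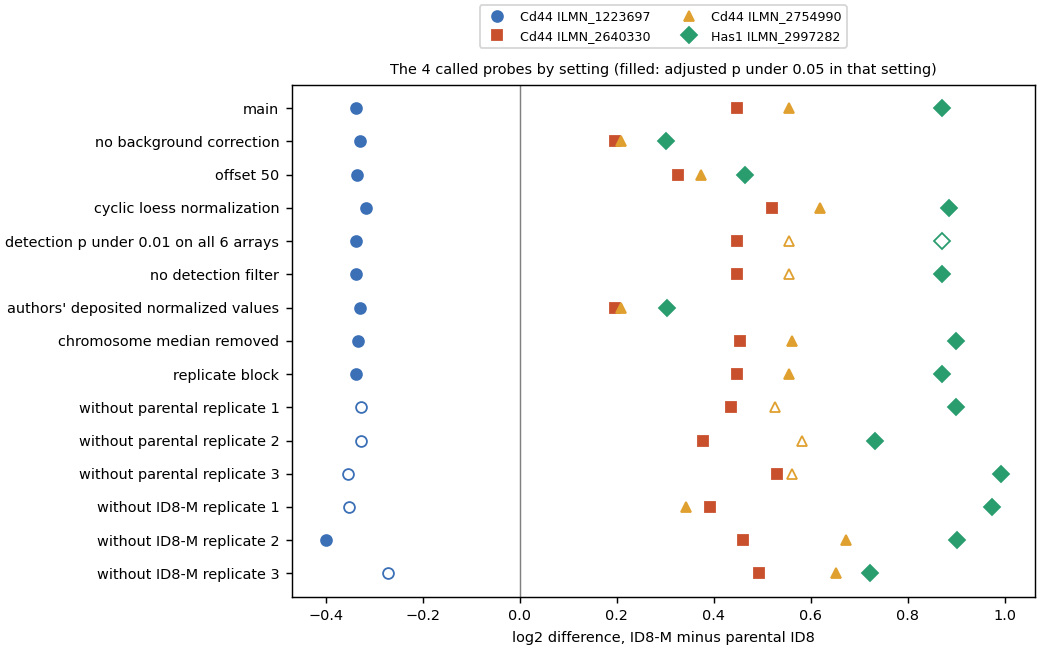
Log2 difference (x axis, ID8-M minus parental ID8) of the 4 called probes in the main setting and each of 14 alternative settings (y axis); filled symbols have an adjusted p under 0.05 in that setting and open symbols do not or were not tested there. Cd44 ILMN_1223697 stays between −0.40 and −0.27, and the other three probes stay above 0.

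The remaining machinery of hyaluronan and CD44 was taken from 8 lists of 81 genes, of which 41 were tested by their brightest probe. Of these 41, 9 rose and 5 fell in ID8-M (limma, adjusted p under 0.05 over all tested probes), and 27 did not pass. Among the 9 called higher, Tlr2 and Vcan were detected in ID8-M alone and passed the detection filter only through it. Over all 8933 tested genes 30.8% passed, 15.4% higher and 15.3% lower. Without parental 2 the number of falls was 3. The median log2 difference was −0.03 over the 41 genes and −0.03 over all tested genes. For 6 of the genes named below, the log2 difference shrank by over 1.5 times without background correction, to 0.24 for Cemip, 0.32 for Tlr2, 0.33 for Vcan, 0.20 for Itih2, 0.71 for Tiam1 and −0.25 for Slc7a11. These lists were drawn up with earlier results of these data known, and no list test was run. The counts of each list below stand beside the same shares of 30.8%, 15.4% and 15.3%, and nothing is read from them.

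Among 4 tested genes that supply hyaluronan precursors, 1 rose and none fell. Gfpt2, an isoform of the enzyme that commits fructose-6-phosphate to UDP-N-acetylglucosamine, had log2 intensities of 9.13 in parental ID8 and 10.96 in ID8-M. It rose by 1.84 ± 0.11 (SE, limma adjusted p = 8.78e-06), and the lines did not overlap. Its sister isoform Gfpt1 differed by 0.25 ± 0.11 (adjusted p = 0.123), Ugp2, which makes UDP-glucose, by 0.18 ± 0.12 and Uap1, the last enzyme of the route, by 0.03 ± 0.15. Ugdh, which makes UDP-glucuronic acid, was not tested.

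Among 4 tested genes of further hyaluronan breakdown, 3 rose and none fell. Hexa, a subunit of lysosomal hexosaminidase, rose by 0.47 ± 0.08 (limma adjusted p = 0.0031). Cemip, which binds and depolymerizes hyaluronan, rose by 0.38 ± 0.09 (adjusted p = 0.016), and that call was lost without parental 3 or ID8-M 3. Cemip2, a cell surface hyaluronan-degrading protein in mouse, rose by 0.30 ± 0.09 (adjusted p = 0.0321), as did 1 of its 2 other tested probes (0.35). The Cemip2 call outlasted the removal of ID8-M 3 but of no other array, and it was lost with the median difference of its chromosome removed (0.19, adjusted p = 0.151). Gusb, lysosomal beta-glucuronidase, differed by 0.05 ± 0.09 by the brightest of 4 tested probes, and 1 dimmer probe was called higher (0.40 ± 0.10, adjusted p = 0.023). Hyal3, Hyal4, Hyal5, Hyal6 and Spam1 were not tested.

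Other hyaluronan receptors gave 1 rise among 3 tested genes. Tlr2, a pattern receptor that hyaluronan fragments can engage, was detected on no parental array and all 3 ID8-M arrays, so it entered the fit only through the line where it is high. On the background-corrected scale ID8-M was at least 1.63-fold above the parental floor, while the raw intensities differed by 1.22-fold. With every probe tested and no detection filter, its adjusted p was 0.00096 (limma). Tlr4 differed by 0.13 ± 0.12 and the scavenger receptor gene Stab1 by 0.13 ± 0.08, and neither passed by its brightest probe. A dimmer Stab1 probe, detected on no parental array and on all 3 ID8-M arrays, was called higher (0.93), so the Stab1 probes disagree. Hmmr, which encodes the receptor RHAMM, was detected on 1 parental array and on no ID8-M array and was not tested.

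Hyaluronan-binding matrix genes were mostly not tested, since only 2 of 16 with a probe were detected on all 3 arrays of a line. Both were called higher. Vcan, the large proteoglycan versican, was detected on all 3 ID8-M arrays and no parental array, so it too entered only through ID8-M. It was at least 1.18-fold above the parental floor on the background-corrected scale, and its raw intensities differed by 1.22-fold. Its adjusted p with no detection filter was 0.00312 (limma). Itih2, a heavy chain that is coupled covalently to hyaluronan, rose by 0.39 ± 0.08 (adjusted p = 0.00939). No probe carries the symbol Tnfaip6, and it was not analysed here.

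Partners of CD44 at the membrane and cytoskeleton changed in both directions. Of 5 tested, Tiam1, a Rac exchange factor, rose by 1.14 ± 0.10 (limma adjusted p = 7.47e-05). Msn, which encodes moesin, a linker of CD44 to actin, fell by 0.53 ± 0.09 (adjusted p = 0.00403), and its second tested probe fell by 0.62. With the median difference of its chromosome removed, the Msn difference was −0.25 (adjusted p = 0.0975). Slc7a11, a cystine transporter stabilized by CD44 variant forms in cancer cells, fell by 0.49 ± 0.13 (adjusted p = 0.0218) by its brightest probe and differed by −0.02 by its other one, and the call ended on leaving out parental 2, parental 3 or ID8-M 2, or without a detection filter (adjusted p = 0.0573). Iqgap1 (−0.17 ± 0.12) and Vav2 (0.04 ± 0.09) did not pass.

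Of 6 tested genes that cleave CD44, 1 fell and 1 rose. Mmp14, a membrane-bound protease that sheds CD44, fell by 0.58 ± 0.09 (limma adjusted p = 0.00222). Psenen, a subunit of the gamma-secretase that cuts the CD44 stump, rose by 0.26 ± 0.08 (adjusted p = 0.0456), and leaving out any 1 array, or testing all probes without a detection filter (adjusted p = 0.0588), ended that call. The sheddase gene Adam17 differed by −0.03 ± 0.08 (adjusted p = 0.808). Adam10 was not tested.

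Of 14 tested splicing factors, some of which are known to regulate Cd44 exons, 1 fell and none rose by their brightest probe. Ptbp1, a repressor of exon inclusion, fell by 0.28 ± 0.08 (limma adjusted p = 0.0323), and 5 of its 10 tested probes were called lower and none higher. The call of its brightest probe outlasted the removal of ID8-M 2 but of no other array, and it was lost with cyclic loess (adjusted p = 0.0632) and with the chromosome's median removed (0.0538). A dimmer probe was also called lower for Ybx1, an RNA-binding protein (−1.14 ± 0.12, adjusted p = 0.000219), and for Rbfox2 (−0.31 ± 0.09, adjusted p = 0.0375), whose brightest probes differed by −0.22 and −0.19 and did not pass. Esrp2, which promotes epithelial splice forms, differed by −0.01 ± 0.09 (adjusted p = 0.92) by its brightest probe. The sign of that difference turned under 4 of 14 settings. It was called higher with the median of its chromosome, −0.31, subtracted (0.29, limma adjusted p = 0.0486). The other tested Esrp2 probe differed by −0.29 ± 0.12 and did not pass (adjusted p = 0.0994). Esrp1, its paralog and a known promoter of Cd44 variant exons, was not detected on any array.

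Among 3 tested ligands of CD44 other than hyaluronan, Fn1, which encodes fibronectin, fell by 0.69 ± 0.10 (limma adjusted p = 0.00132), and its 2 other tested probes fell too, by 0.71 and 1.08. The probe that fell by 1.08 was detected on all 3 parental arrays but on only 1 ID8-M array. It thus entered the fit only through the line where it is high. Mif and Lgals9 differed by 0.01 ± 0.07 and −0.10 ± 0.10 and did not pass.

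**Figure D5:**
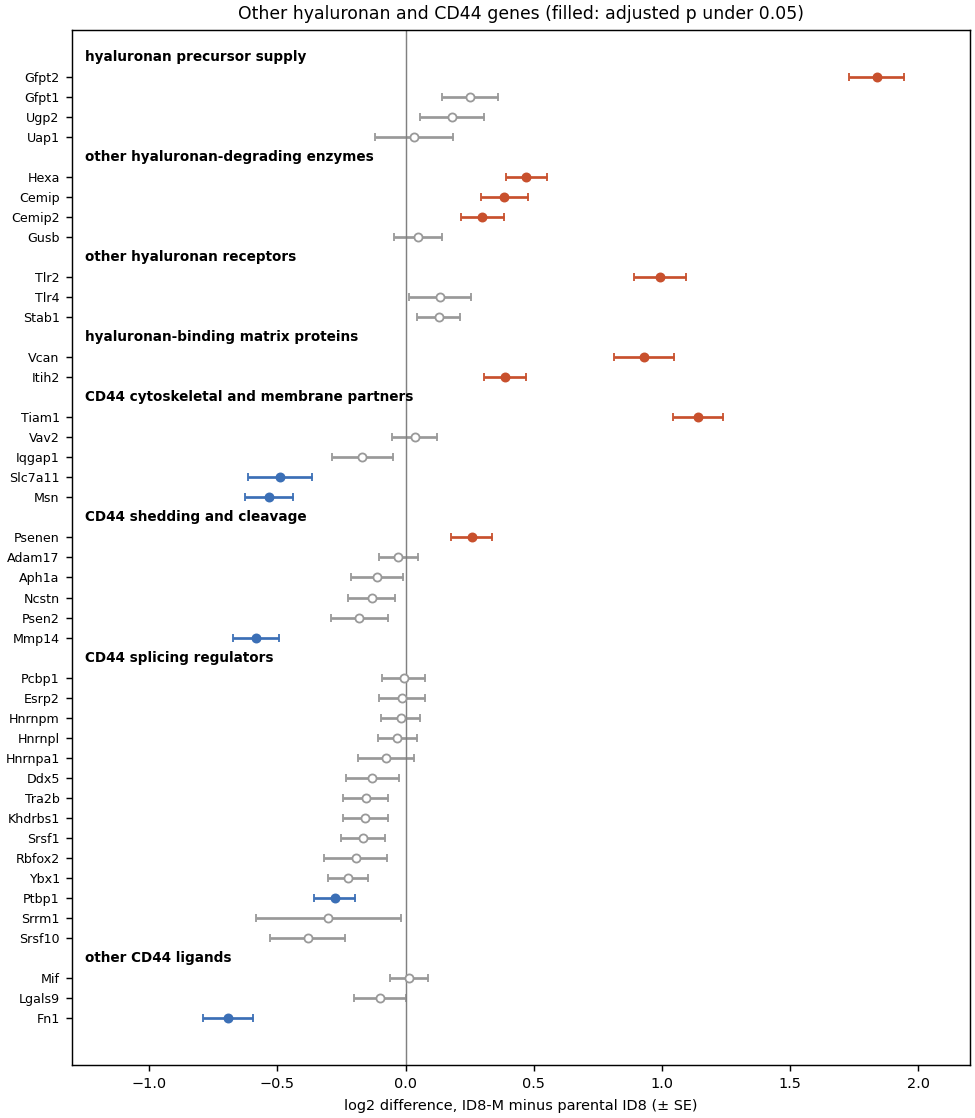
Log2 difference (ID8-M minus parental ID8, ± SE) of the 41 tested genes of the 8 lists, by their brightest probe; filled orange points are higher and filled blue points lower at an adjusted p under 0.05, open grey points did not pass. Gfpt2 (1.84) and Tiam1 (1.14) are the highest, and Fn1 (−0.69) and Mmp14 (−0.58) the lowest.

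Most neighbours of the members on the chromosome did not pass the threshold, as was so for most tested genes, of which 30.8% passed. The neighbours are few, and nothing is read from how many of them passed. By RefSeq gene order, the 3 nearest tested genes on either side of Cd44 were Trim44, Fjx1 and Slc1a2 before it and Apip, Cat and Nat10 after it, a choice by position that was added after the member values were seen. Slc1a2, a glutamate transporter, rose by 1.46 ± 0.08 (limma adjusted p = 5.95e-06), and the other 5 differed by −0.29 to 0.29 and did not pass. Hyal1 and Hyal2 lie beside each other, and of the tested genes around them Sema3b, a secreted semaphorin, rose by 1.51 ± 0.09 (adjusted p = 7.76e-06), while Tmem115, Nprl2, Rassf1, Naa80 and Ifrd2 did not pass. Of the 6 tested genes around Has2, Mrpl13 rose by 0.36 ± 0.07 (adjusted p = 0.00806) and Mtbp by 0.29 ± 0.08 (adjusted p = 0.0254), and the other 4 did not pass. The median over the 380 genes tested on that chromosome was 0.36 (log2). Of the 6 around Has1, Zfp52 rose by 0.42 ± 0.12 (adjusted p = 0.0294) and the other 5 did not pass.

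The profile of the brightest Cd44 probe over the 6 arrays was most like those of Tmem218, Prkaca, Depdc1b, Dctd and Cdk5rap1, with Pearson correlations of 0.993 to 0.996 among 8930 genes. Their log2 differences between the lines were −0.35 to −0.20. The profile of ILMN_2754990 was most like those of Gtf3c6, Tada3, Rad51ap1, Zbtb38 and Pyroxd1, with correlations of 0.972 to 0.980 and log2 differences of 0.20 to 0.52. For that probe ID8-M 1 stood apart, at log2 6.76 against 6.10 and 6.15 on the other ID8-M arrays, so these correlations lean on 1 array. All these values come from the same 6 arrays in 2 lines, where 170 genes reached a correlation over 0.95 with the former probe and 27 with the latter, so these lists describe likeness of profile only.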

How the data were processed

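RNA of 6 samples, 3 per line, was measured on 1 Illumina bead chip after labelling as biotinylated cRNA, per the labels' protocols. Per the file headers, the deposited scanner table holds mean bead intensity, the count of beads, the standard error over beads (a signal measure) and a detection p-value. The intensity was deposited without background subtraction or normalization. A second deposited table of normalized intensity kept the order of each array (rank correlation 1); the authors' normalization method and the scanner software are not stated there or in the labels. Scanner intensities were then background corrected and quantile normalized with neqc of limma 3.58.1 in R 4.3.3 (offset 16) and put on the log2 scale. A probe was tested if its detection p was below 0.05 on each of the 3 arrays of a line (16221 of 45281) with lmFit and eBayes, two-sided, Benjamini-Hochberg adjusted over all tested probes. Genes were named from the platform annotation (34885 probes with 1 symbol, 18 with several, 10378 with none; 0 symbols updated through the GRCm38.p6 RefSeq table). A gene's tested probe with the highest mean represents it. Named were all member probes and, per list, up to 2 called rises and 2 called falls, plus Hmmr, Vcan, Tnfaip6, Cemip, Cemip2, Esrp1 and Esrp2, and the 5 most correlated genes for 2 Cd44 probes. Members and lists were chosen with earlier results of these data known. A difference is given as "at least" where a probe was undetected on all arrays of 1 line, with per-array floors at the lowest detected normalized signal. The fit was tested on simulated data. Alternatives were the background correction, offset, normalization, detection filter, deposited table, chromosome medians, replicate block and each array left out.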

Additional observations from a re-analysis of the deposited data

How the results depend on the processing

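Across 14 alternative settings the number of called probes on the array ranged from 3437 to 5296 around 4610. The count of called member probes, 4, was 2 with detection p under 0.01 on all 6 arrays, where ILMN_2754990 and Has1 ILMN_2997282 were not tested. It was 2 to 4 when 1 array was left out. The 4 without ID8-M 1 held Hyal1 ILMN_1253049 in place of Cd44 ILMN_1223697. That Hyal1 probe passed the filter only because the ID8-M array that did not detect it was removed. Called pathway genes ranged from 10 to 17 around 14. Those called lower, 5, numbered 3 to 5 when 1 array was left out. The Esrp2 difference, −0.014, turned to 0.041 with cyclic loess, and it lay between −0.062 and 0.036 when 1 array was left out. The cause of these shifts was not tested. With the chromosome's median removed it was 0.29 (limma adjusted p = 0.0486). That shift is the subtraction itself, since the median of its chromosome was −0.31. Of 208 values of named pathway genes under the alternatives, 174 kept direction and call, 30 kept direction and lost the call, and 4, all of Esrp2, turned sign. A changed detection filter or a replicate block can change a call but not a direction. With replicate number as a block, 4 member probes and 12 pathway genes were called, and 3969 probes in all, and the calls of Cemip2, Psenen and Ptbp1 were lost (limma adjusted p = 0.0563, 0.0811 and 0.0716). Same-numbered arrays deviated together with correlations of only 0.04, −0.09 and 0.01, and the labels give no shared origin. What limits the dim probes is signal over background: the difference of ILMN_2640330 was 0.45 with and 0.20 without background correction, against −0.34 and −0.33 for the bright ILMN_1223697.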
